A study of Homo sapiens with 6 samples.

Results

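The genes described here are 68 of the 14812 genes measured, and they encode S100 proteins (20), annexins (12), late cornified envelope (LCE) proteins (17), small proline-rich (SPRR) proteins (10), transglutaminases (4: *TGM4*, *TGM5*, *TGM6* and *TGM7*), cystatin A (*CSTA*), involucrin (*IVL*), loricrin (*LORICRIN*) and filaggrin (*FLG*). They were chosen by symbol, with earlier results of these data known. The symbol rule found 69 genes, of which the transcribed pseudogene *SPRR2C* was left out, and it also took in *S100PBP*, which encodes a protein that binds S100P and is not an S100 protein. UM-Cis is the cisplatin-resistant derivative of UMSCC1, an established line of oral squamous cell carcinoma (OSCC), selected in cisplatin raised stepwise from 1 to 5 μg/ml over about 12 months. UM-Cis is therefore 1 selected line, and what differs between the lines cannot be told apart from what is particular to this derivation. Each line gave 3 arrays (Affymetrix Human Gene 2.0 ST) of total RNA from cells cultured without cisplatin. The labels number 2 arrays of each line (1 and 2) and leave the remaining one without a number. Values per array are log2 signals, given below with the unnumbered array first, then array 1 and array 2.

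In stratified squamous epithelium, keratinocytes that leave the basal layer build a cornified envelope under the plasma membrane. Involucrin, SPRR, loricrin and LCE proteins are its building blocks, transglutaminases crosslink them, and cystatin A, an inhibitor of cysteine proteases, is also incorporated. The genes of filaggrin, loricrin, involucrin, the LCE and SPRR proteins and most S100 proteins lie side by side on chromosome 1, in the epidermal differentiation complex. S100 proteins are small calcium-binding proteins that act in pairs and bind partner proteins, among them annexins, which bind membranes when calcium rises. Annexin A2 binds S100A10, annexin A1 binds S100A11, and S100A8 with S100A9 forms calprotectin.

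The array medians lay between 4.74 and 4.82, and no detection call was available, so whether a signal near or under the median stood above background is not known. Of the 68 genes, 29 had a mean under the median of each array in both lines. Of 6 measured epithelial markers, *KRT5*, the basal keratin, was lower in UM-Cis (mean 4.68 against 6.61, adjusted p = 0.00910). Its partner *KRT14* lay lower on all UM-Cis arrays (4.97 against 5.90, adjusted p = 0.0588, and 0.00797 in a fit blocked on the replicate label). The desmosomal genes *DSG3* (6.49 and 6.16) and *PKP1* (4.20 and 4.34) did not pass, and the epithelial adhesion gene *EPCAM* (10.30 and 10.56) and *SFN*, which encodes stratifin (11.11 and 11.28), were bright in both lines. The mean of the 6, which *EPCAM* and *SFN* raise, was 6.86 to 7.03 in UM-Cis and 7.44 to 7.51 in UMSCC1. The mean of 9 measured markers of other cell types was 4.60 to 4.74 in UM-Cis and 4.56 to 4.63 in UMSCC1, and 6 or 7 of the 9 lay under the array median on each array. The macrophage marker *CD68* was bright in both lines and higher in UM-Cis (10.06 against 8.65, adjusted p = 0.0115), and the monocyte marker *CD14* was lower (4.30 against 4.83, adjusted p = 0.0490). The part of these differences in the results below was not tested. The unnumbered arrays stood apart: their deviations from the line means correlated by 0.505 across genes between the lines, and by -0.327 to -0.433 with those of the numbered arrays of the other line. Arrays 1 and 2 correlated across labels (0.265 and 0.233) as well as within them (0.237 and 0.357). The labels state no pairing, so p-values with the replicate block, here and below, rest on a pairing taken from these same data.

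With limma and Benjamini-Hochberg adjustment over all 14812 genes (threshold 0.05, two-sided), 4 of the 68 genes fell in UM-Cis (*CSTA*, *ANXA9*, *ANXA8* and *S100A9*), 0 rose and 64 did not pass. Over all genes, 4.60% fell (681) and 5.91% rose (876), so the share that fell here (5.88%) was close to the background. At an unadjusted p under 0.05, 10 of the 68 were lower (14.7%, all genes 12.0%) and 2 were higher (2.94%, all genes 12.7%). The methods' t-test with the same adjustment called 1 lower (*CSTA*) and 0 higher, among 248 lower and 322 higher over all genes. At the study's cut-offs of 2-fold and an unadjusted p under 0.05, applied here to limma's p, 3 were lower (all genes, 1.70%) and 0 higher (all genes, 2.44%). The study used its own p-values and gene set, so these are not its counts. All UM-Cis arrays lay below all UMSCC1 arrays for 12 of the 68 genes (17.6%, all genes 15.7%) and above them for 2 (2.94%, all genes 14.7%). When the replicate label was added as a block, 3 rose (*ANXA1*, *ANXA2* and *S100A6*) and 6 fell (the 4 named and *S100A14* and *S100A2*), among 1450 genes higher and 1244 lower. Of 15 listed control genes 6 were measured (*GAPDH*, *TBP*, *HPRT1*, *B2M*, *PPIA* and *PGK1*). Their own differences disagreed, from -0.53 (*HPRT1*) to 0.56 (*B2M*), so they are no firm reference. Holding the median of these 6 control genes equal across arrays raised all differences by 0.24. It turned the split over all genes from 876 higher and 681 lower to 787 higher and 166 lower. On that scale 1 of the 68 genes was higher (*ANXA2*) and 3 were lower (all but *S100A9*). The shift is set for each array, so it can also widen the spread within a line. The difference of *ANXA1* grew from 0.48 to 0.72 there, while its adjusted p from limma went from 0.0612 to 0.104. A call lost on that scale is therefore not by itself a smaller difference. Array weights, and the numbered arrays alone, each gave 2 higher (*ANXA1* and *ANXA2*) and 10 lower. The counts over all genes rose with them, to 1594 higher and 1508 lower with array weights and 1387 and 1301 with the numbered arrays. Leaving out 1 array gave 2 to 8 lower, among 324 to 738 lower over all genes.

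**Figure D1:**
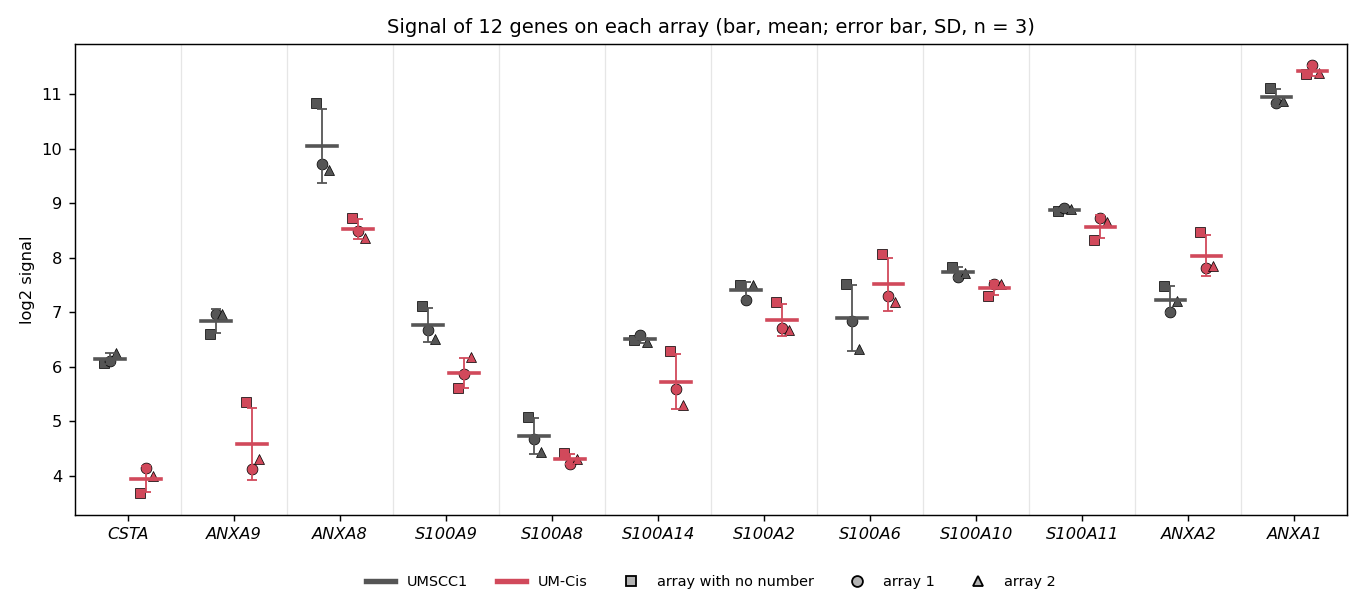
Log2 signal (vertical axis) of 12 genes on each of the 3 UMSCC1 arrays (grey) and 3 UM-Cis arrays (red), with symbols for the array label, a bar for the mean and an error bar for the SD. *CSTA*, *ANXA9*, *ANXA8* and *S100A9* lie lower on every UM-Cis array than on any UMSCC1 array, and *ANXA2* and *ANXA1* lie higher.

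Among the envelope genes, the protease inhibitor *CSTA* differed most clearly. *CSTA* measured 3.68, 4.14 and 4.00 in UM-Cis and 6.08, 6.11 and 6.26 in UMSCC1. The UM-Cis arrays all lay under the array median, the UMSCC1 arrays all lay above it, and the gap between the lines was far wider than the spread within either. The log2 difference was -2.21 (SE 0.15, adjusted p = 0.000464), a 4.62-fold lower signal, and the adjusted p stayed between 0.000882 and 0.00561 when any 1 array was left out. Whether the UM-Cis signal stood above background is not known, so the fold is one of signals and may not be that of transcripts. The adjusted p was 0.00137 with the replicate block.

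The genes of the structural envelope proteins did not pass. *IVL*, which encodes the early scaffold protein involucrin, measured 4.63, 4.43 and 4.54 in UM-Cis and 4.84, 4.67 and 4.57 in UMSCC1 (log2 difference -0.16, 95% interval -0.47 to 0.15, adjusted p = 0.524). *LORICRIN*, the main late envelope protein in skin, measured 5.09, 5.21 and 5.26 against 5.09, 5.59 and 5.38 (-0.17, interval -0.53 to 0.20, adjusted p = 0.581). *FLG*, whose product bundles keratin filaments, measured 4.55, 4.55 and 4.63 against 4.72, 5.03 and 4.58 (-0.21, interval -0.55 to 0.14, adjusted p = 0.458). The lines overlapped for all 3 genes, the signals lay near the array medians, and the differences took the opposite sign with the control genes held equal (0.076 for *IVL*, 0.071 for *LORICRIN* and 0.031 for *FLG*). A difference of 2-fold lay outside each of these intervals, but at signals this dim a change in transcript number need not show.

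Of the 10 SPRR genes, which encode the crosslinking bridges of the envelope, 0 passed in either direction, and 1 had an unadjusted p under 0.05 (*SPRR2A*). Of these, 7 were under the array medians in both lines. *SPRR2F* had the widest gap in means, with 5.67, 3.49 and 5.06 in UM-Cis and 6.12, 5.60 and 5.44 in UMSCC1. UM-Cis array 1 lay far below the rest while the UM-Cis unnumbered array lay among the UMSCC1 arrays, and the log2 difference of -0.98 (SE 0.49) had an adjusted p of 0.269. *SPRR2A* measured 5.75, 4.83 and 4.95 against 5.64, 6.04 and 5.62. The 2 numbered UM-Cis arrays lay below all UMSCC1 arrays and the unnumbered array among them (-0.59, SE 0.25, adjusted p = 0.194), and the numbered arrays alone gave an adjusted p of 0.0132. *SPRR1B* went the other way at a very dim signal (means 2.30 in UM-Cis and 1.88 in UMSCC1, 0.42, adjusted p = 0.275). The differences of the other 7 SPRR genes ran from -0.36 to 0.06. The median difference of the SPRR genes was -0.18, against -0.04 for all genes, and became 0.06 with the control genes held equal. The SPRR2 genes are near copies of each other, so that their probe sets may share signal.

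The 17 LCE genes, which encode late envelope proteins of the epidermis, differed little between the lines. Their log2 differences ran from -0.42 (*LCE1F*) to 0.14 (*LCE2D*), 16 of 17 were below 0 and 0 passed, also at an unadjusted p under 0.05. Their median of -0.19 took the opposite sign (0.05) with the control genes held equal. Of the 17, 10 were under the array medians in both lines. *LCE3B* measured 7.10, 6.87 and 6.92 in UM-Cis and 6.86, 7.26 and 6.92 in UMSCC1, and *LCE3A* measured 6.52, 6.57 and 6.30 against 6.59, 6.66 and 6.80. *LCE3B* overlapped between the lines (-0.05, adjusted p = 0.882), and *LCE3A* lay lower on all UM-Cis arrays by a small step (-0.22, adjusted p = 0.380). With the control genes held equal both differences took the opposite sign (0.19 for *LCE3B* and 0.018 for *LCE3A*). Of the transglutaminases known from the envelope, *TGM5* was measured, at a very dim signal (means 2.83 in UM-Cis and 2.85 in UMSCC1), and *TGM1* and *TGM3* were not analysed here. *TGM4*, the enzyme of prostate secretion (5.28, 5.18 and 5.16 against 4.76, 5.23 and 5.19) and *TGM6* (5.42, 5.12 and 5.48 against 5.00, 5.35 and 5.59) overlapped between the lines, with log2 differences of 0.14 and 0.03.

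**Figure D2:**
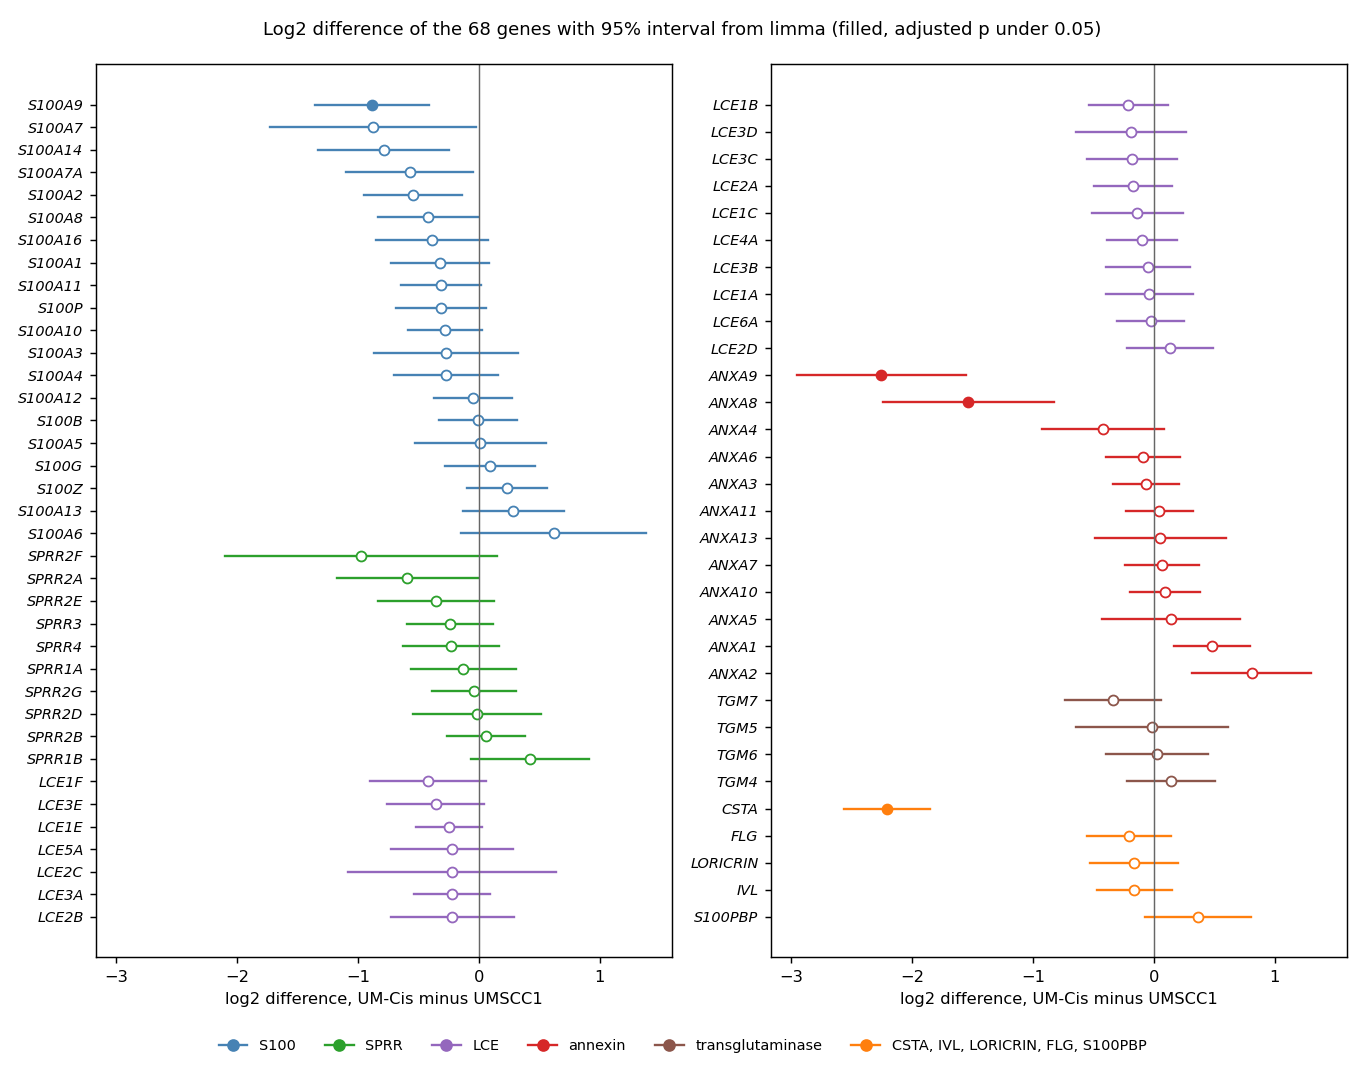
Log2 difference, UM-Cis minus UMSCC1 (horizontal axis), of each of the 68 genes with its 95% interval from limma, coloured by family and ordered within it. The filled points are the 4 genes that passed, all lower in UM-Cis, while the family medians of SPRR (-0.18) and LCE (-0.19) change sign with the control genes held equal (0.06 and 0.05).

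Within the S100 family, 1 of 20 genes passed (5.00%, close to the 4.60% of all genes that fell), *S100A9*, which was lower in UM-Cis. *S100A9* measured 5.62, 5.86 and 6.18 in UM-Cis and 7.12, 6.67 and 6.51 in UMSCC1. All UM-Cis arrays lay below all UMSCC1 arrays, with a gap of 0.33 between the nearest arrays, less than the range within UM-Cis (0.56) or UMSCC1 (0.61). The log2 difference was -0.88 (SE 0.21, adjusted p = 0.0314), a 1.84-fold lower signal. The call was lost in 4 of 6 refits that each lacked 1 array (to as much as an adjusted p of 0.110), more often than for the other 3 genes, and also with the methods' t-test (adjusted p = 0.150) and with the control genes held equal (-0.64, adjusted p = 0.228).

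*S100A8*, the calprotectin partner of *S100A9*, lay near or under the array medians, at 4.41, 4.22 and 4.30 in UM-Cis and 5.08, 4.68 and 4.43 in UMSCC1. The lines did not overlap, but UM-Cis was under the array median throughout and the difference did not pass (-0.42, SE 0.18, adjusted p = 0.196). The third gene of the calgranulins, *S100A12*, overlapped between the lines (means 3.48 and 3.53). Whether *S100A9* and *S100A8* differed in size of change was not tested.

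*S100A14* and *S100A2*, both known from squamous epithelium, lay lower in UM-Cis without overlap. *S100A14* measured 6.28, 5.59 and 5.30 in UM-Cis and 6.50, 6.58 and 6.45 in UMSCC1. The UMSCC1 arrays agreed within 0.13 and the UM-Cis unnumbered array lay nearest to them (-0.79, SE 0.24, adjusted p = 0.0743, and 0.0416 with the replicate block). *S100A2*, a known target of p53 family factors, measured 7.20, 6.71 and 6.68 against 7.49, 7.22 and 7.50. The UM-Cis unnumbered array came within 0.02 of the lowest UMSCC1 array, and the difference of -0.54 (SE 0.18) had an adjusted p of 0.0971, and 0.0416 with the block. *S100A16*, a relative of *S100A14*, measured 8.62, 8.08 and 7.82 against 8.58, 8.54 and 8.55. Its 2 numbered UM-Cis arrays were lower and its unnumbered array was not (-0.39, adjusted p = 0.287).

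*S100A6*, which encodes calcyclin, was the S100 gene with the largest positive difference. It measured 8.08, 7.29 and 7.19 in UM-Cis and 7.53, 6.83 and 6.33 in UMSCC1. The lines overlapped, and in each line the unnumbered array was the highest, by 0.84 in UM-Cis and 0.95 in UMSCC1 over the mean of the numbered arrays. Compared label by label, a pairing that the labels do not state, UM-Cis was higher on all 3 pairs. The adjusted p of 0.304 (0.62, SE 0.33) became 0.0215 with the block. *S100A7* and its near copy *S100A7A*, the psoriasins, were dim in both lines (means 3.34 against 4.21 and 3.88 against 4.45, adjusted p = 0.192 and 0.165), and for *S100A7* the UMSCC1 unnumbered array stood above the others of its line (5.12, 3.80 and 3.71). The other 9 S100 genes did not pass, with differences from -0.32 (*S100A1*) to 0.29 (*S100A13*), and neither did *S100PBP* (0.37, adjusted p = 0.290). The family's median difference was -0.30 (15 of 20 below 0), which shrank to -0.06 with the control genes held equal.

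An annexin, *ANXA9*, differed by about as much as *CSTA*. *ANXA9*, an atypical annexin whose calcium-binding sites are not conserved, measured 5.35, 4.12 and 4.30 in UM-Cis and 6.60, 6.97 and 6.96 in UMSCC1. The lines stood apart by 1.25 at their nearest arrays, and the UM-Cis unnumbered array lay above the numbered ones. The log2 difference was -2.25 (SE 0.30, adjusted p = 0.00330), a 4.76-fold lower signal. The numbered UM-Cis arrays lay under the array medians, so this fold is one of signals and may not be that of transcripts. The difference passed whichever of the 6 arrays was left out (highest adjusted p 0.0203). The methods' t-test gave an adjusted p of 0.0714. Without UM-Cis array 1 the difference was -2.02, and that of *CSTA* -2.31. *ANXA9* lies on chromosome 1 outside the complex.

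*ANXA8*, an annexin of stratified epithelia, measured 8.73, 8.48 and 8.36 in UM-Cis and 10.84, 9.72 and 9.62 in UMSCC1. All UM-Cis arrays were lower, and the UMSCC1 unnumbered array stood 1.18 above the mean of the numbered ones. The log2 difference was -1.53 (SE 0.31, adjusted p = 0.0171), a 2.90-fold lower signal, and the call was lost without UM-Cis array 1 or UM-Cis array 2 (adjusted p up to 0.0733). *ANXA8L1*, a near copy of *ANXA8*, followed it array by array (8.49, 8.25 and 8.15 against 10.68, 9.53 and 9.47, -1.60, adjusted p = 0.0143). The probe sets of the 2 genes may read 1 signal, so the difference cannot be assigned to either copy.

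*ANXA2* and *ANXA1* were the only genes of the 68 with all UM-Cis arrays above all UMSCC1 arrays on the deposited scale, and neither passed. *ANXA2*, whose product takes part with S100A10 in the activation of plasminogen at the cell surface, measured 8.48, 7.81 and 7.84 in UM-Cis and 7.49, 7.00 and 7.21 in UMSCC1. The unnumbered array was the highest in each line. The log2 difference of 0.81 (SE 0.22) had an adjusted p of 0.0504, and 0.00849 with the block. *ANXA2* has processed pseudogenes on the array, and the differences of *ANXA2P1* (-0.11, adjusted p = 0.777), *ANXA2P2* (0.18, adjusted p = 0.450) and *ANXA2P3* (0.04, adjusted p = 0.933) were smaller. The *ANXA2P2* probe set was far brighter than that of *ANXA2* (means 12.42 in UM-Cis and 12.24 in UMSCC1, against 8.04 and 7.23). Those of *ANXA2P1* (6.24 and 6.34) and *ANXA2P3* (5.26 and 5.22) were dimmer. A probe set of a pseudogene may read *ANXA2* transcripts, and the share was not tested, so 0.81 is the difference of a single probe set. *ANXA1*, which encodes a regulator of inflammation that is abundant in squamous epithelium, measured 11.37, 11.53 and 11.39 against 11.12, 10.83 and 10.88. The difference was small (0.48, SE 0.14), though larger than the SD within UM-Cis (0.089) or UMSCC1 (0.15). Its adjusted p was 0.0612 from limma, and 0.0491 with the block.

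The S100 partners of these annexins lay below 0 on the deposited scale, and close to 0 with the control genes held equal (-0.05 for *S100A10* and -0.08 for *S100A11*). *S100A10* measured 7.30, 7.52 and 7.53 in UM-Cis and 7.83, 7.64 and 7.72 in UMSCC1 (-0.28, SE 0.13, adjusted p = 0.242). *S100A11* measured 8.33, 8.72 and 8.66 against 8.85, 8.91 and 8.90 (-0.31, SE 0.14, adjusted p = 0.228). Both lay lower on all UM-Cis arrays without passing, and for both the UM-Cis unnumbered array was the lowest. The differences between an annexin and its partner were not tested. None of the remaining annexins passed. *ANXA5*, which binds exposed phosphatidylserine, measured 10.98, 10.22 and 10.29 against 10.75, 10.14 and 10.19, with the unnumbered array highest in each line (0.14, adjusted p = 0.789). *ANXA3* (10.35 and 10.41, interval of the difference -0.34 to 0.21), *ANXA7* (9.77 and 9.70, -0.23 to 0.37) and *ANXA11* (7.90 and 7.85, -0.23 to 0.32) were well above the array medians, and their intervals held no 2-fold change. *ANXA4* lay lower on the numbered UM-Cis arrays and not on the unnumbered array (7.99, 7.17 and 7.27 against 8.04, 7.80 and 7.84, -0.42, adjusted p = 0.292). Of the 12 annexins 2 passed, both lower (16.7%, all genes 4.60%). The median difference of the 12 was 0.05, or 0.28 with the control genes held equal.

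**Figure D3:**
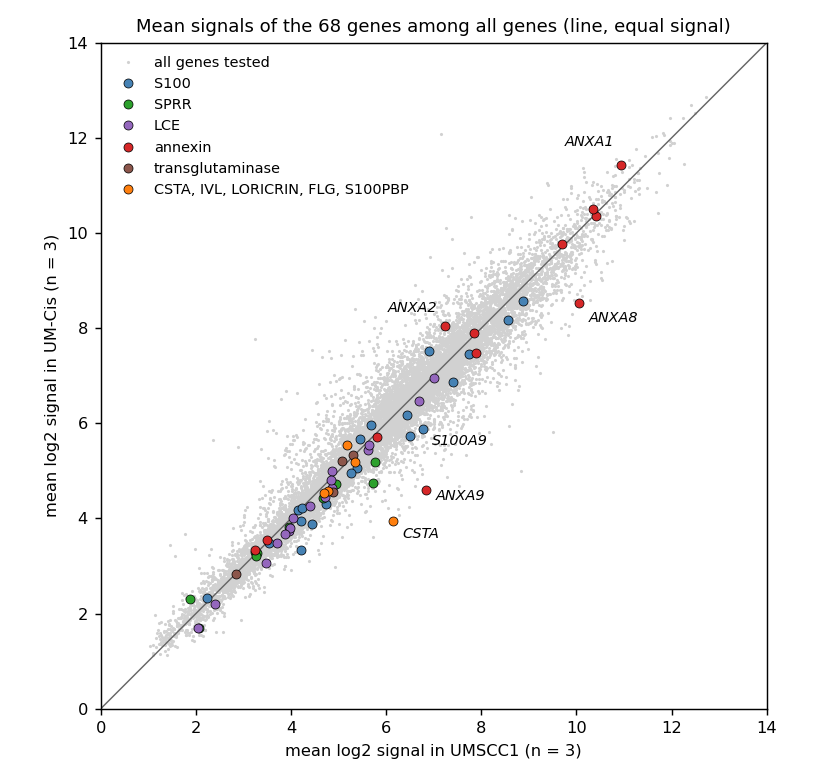
Mean log2 signal in UMSCC1 (horizontal axis) and in UM-Cis (vertical axis, n = 3 each) of all 14812 genes (grey) and the 68 genes (coloured by family), with a line of equal signal. *CSTA*, *ANXA9* and *ANXA8* lie clearly below the line, while most SPRR and LCE genes lie among the dim genes close to it.

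Along the epidermal differentiation complex, from *S100A10* to *S100A1* in RefSeq order, 61 genes were measured. Of these 1 passed, *S100A9* (lower, 1.64%, all genes 4.60%), and 0 rose (all genes 5.91%). At an unadjusted p under 0.05, 10 were lower (16.4%, all genes 12.0%) and 0 higher (all genes 12.7%). The median difference was -0.19, and 52 of 61 were below 0, against 55.1% of all genes. The 46 of these that belong to the 68 genes had a median of -0.22 (40 below 0), and the 15 others had one of -0.16 (12 below 0). The 22 genes that lie elsewhere had a median of 0.04, and 3 of them passed, all lower (13.6%, all genes 4.60%). Of the 61 genes, 37 were under the array medians in both lines. Genes this dim had a median of -0.03 over the whole array, and 57.0% were below 0. The 29 dim genes among the 68 had a median of -0.16, with 23 below 0. All these counts of signs move with the scaling: with the control genes held equal, 25 of the 68 genes were below 0 in place of 50, and the median of the 68 was 0.06 in place of -0.18.

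**Figure D4:**
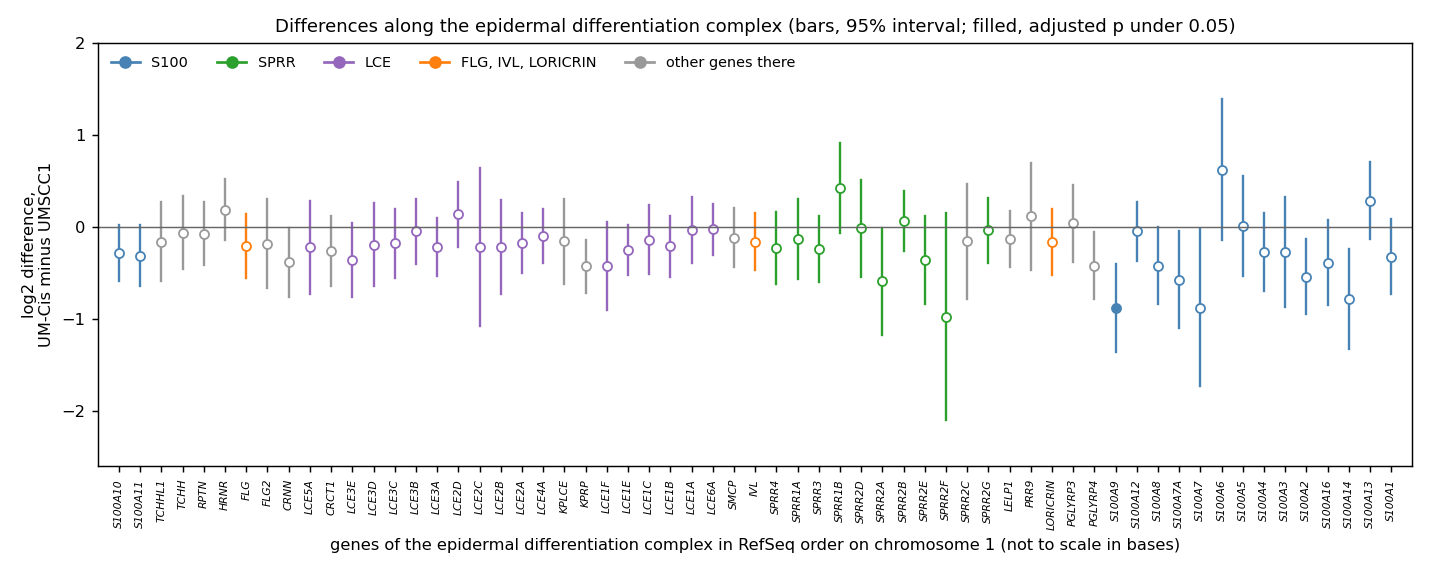
Log2 difference, UM-Cis minus UMSCC1 (vertical axis), with 95% intervals, of the 61 measured genes of the epidermal differentiation complex in their order on chromosome 1. Most points lie slightly below 0 (52 of 61) on the deposited scale, and *S100A9* alone is filled, as past the threshold.

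To set these genes beside their promoters, the 250 bases before the RefSeq start sites (GRCh38.p14) were read for 60 of the 68 genes. *CSTA* and *ANXA8* were not among the 60. Both strands were searched for TGANTCA (AP-1), AACCNGTT (grainyhead-like factors), CCACCC (KLF factors) and TATAAA (the TATA box), none of which holds another, and a gene was counted when any of its windows held the letters. TGANTCA was found in 15 of 60 (25%, against 8.06% of 27305 genes), AACCNGTT in 3 (5%, against 1.85%), CCACCC in 34 (56.7%, against 35%) and TATAAA in 31 (51.7%, against 13%). A match in a window is only a match of letters. The windows of 3 genes that stand at the ends of the results are shown with matches in capitals: *S100A9* (chr1:153357604-153357853, plus strand), the S100 gene that fell, *ANXA9* (chr1:150982042-150982291, plus strand), the annexin with the largest drop, and *ANXA2* (chr15:60397987-60398236, minus strand), the annexin with the largest positive difference.
S100A9: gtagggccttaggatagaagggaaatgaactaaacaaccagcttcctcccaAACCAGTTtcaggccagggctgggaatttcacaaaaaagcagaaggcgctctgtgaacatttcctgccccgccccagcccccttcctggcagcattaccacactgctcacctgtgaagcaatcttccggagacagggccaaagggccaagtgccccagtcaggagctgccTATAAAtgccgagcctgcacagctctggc
ANXA9: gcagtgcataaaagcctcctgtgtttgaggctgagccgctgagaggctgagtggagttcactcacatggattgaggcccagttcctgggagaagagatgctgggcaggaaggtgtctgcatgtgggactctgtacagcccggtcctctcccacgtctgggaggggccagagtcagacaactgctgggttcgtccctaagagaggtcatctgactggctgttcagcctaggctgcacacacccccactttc
ANXA2: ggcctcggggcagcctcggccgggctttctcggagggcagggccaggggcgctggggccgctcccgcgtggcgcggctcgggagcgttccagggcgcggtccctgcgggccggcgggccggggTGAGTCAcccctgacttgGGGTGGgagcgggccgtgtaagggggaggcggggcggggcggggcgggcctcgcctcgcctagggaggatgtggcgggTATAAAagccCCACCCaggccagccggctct
The *S100A9* window holds AACCNGTT 199 bases and TATAAA 29 bases before the start. The *ANXA2* window holds TGANTCA at 127, CCACCC at 109 (on the other strand) and 21, and TATAAA at 31 bases. The *ANXA9* window holds none of the 4 motifs. Among the other genes described, TGANTCA was found before *IVL*, *LORICRIN*, *FLG*, *S100A2*, *S100A12*, *S100PBP*, *SPRR1B*, *SPRR2A* and *SPRR2F*, and not in the window of *S100A9*.

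Genes that work with these families in keratinocytes were read from 7 further lists, with none of the 68 in them. Over all genes 4.60% fell and 5.91% rose, and the shares of these small lists are given in brackets. The lists were chosen with earlier results of these data known, so their shares are descriptions and no test of enrichment. Of 13 other genes of the complex, 0 passed (median -0.13, the smallest p for *KPRP*, -0.43, adjusted p = 0.0707). Of 17 keratins, 4 fell (23.5%) and 0 rose. *KRT13*, a keratin of differentiating oral epithelium, measured 4.29, 4.10 and 4.20 in UM-Cis and 6.53, 6.23 and 5.97 in UMSCC1 (-2.05, adjusted p = 0.000624). Its arrays split without overlap, as those of *CSTA* did. *KRT15* (-0.80, adjusted p = 0.00717) and *KRT5* (-1.94, adjusted p = 0.00910) fell too, as did *KRT23* (-0.58, adjusted p = 0.0352). The UM-Cis means of *KRT13* (4.20), *KRT5* (4.68) and *KRT23* (4.23) lay under the array medians, so their differences are of signals and may not be those of transcripts. With the control genes held equal *KRT13* and *KRT5* passed, and *KRT15* (adjusted p = 0.237) and *KRT23* (0.545) did not. Of 20 genes of the envelope scaffold and desmosome, 2 fell (10.0%, the plakophilins *PKP2*, -0.97, and *PKP3*, -0.52) and 1 rose (5.00%, *KRTDAP*, 0.48). None of these 3 passed with the control genes held equal (adjusted p = 0.134, 0.634 and 0.111), though the difference of *KRTDAP* was larger there (0.72). Without 1 array *PKP3* was lost in 4 of 6 refits and *KRTDAP* in 6 of 6. In the same list *SCEL* (0.96, adjusted p = 0.158) and *CST6* (0.97, adjusted p = 0.260) had higher means in UM-Cis and did not pass. *SCEL* was higher on all UM-Cis arrays, and *CST6* overlapped between the lines. Of the 20 differences, 12 were below 0. Of 16 proteases and inhibitors of desquamation, 2 fell (12.5%): *ST14*, which encodes the membrane protease matriptase (-0.96, adjusted p = 0.00259), and *CTSV*, a cathepsin (-0.69). Neither passed with the control genes held equal (adjusted p = 0.104 and 0.315), and *CTSV* was lost in 5 of 6 refits without 1 array. *CSTB*, the cystatin most like *CSTA*, did not pass (-0.48, adjusted p = 0.0859).

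Of 27 regulators of keratinocyte differentiation, 3 fell (11.1%, all genes 4.60%) and 2 rose (7.41%, all genes 5.91%). *NOTCH1*, a receptor that drives the suprabasal switch, fell (-0.82, adjusted p = 0.00663), as did its ligand *JAG1* (-1.91, adjusted p = 0.0369) and *SOX9* (-0.70), while *FOSL1*, an AP-1 subunit, rose (0.95, adjusted p = 0.00808), as did *NOTCH2* (0.85, adjusted p = 0.0230). With the control genes held equal *NOTCH1* (adjusted p = 0.256) and *SOX9* (0.394) did not pass. *JAG1* and *NOTCH2* were each lost in 4 of 6 refits without 1 array, and the methods' t-test called neither (adjusted p = 0.210 and 0.118). Of 11 genes of barrier lipid synthesis, 2 rose (18.2%, *ALOXE3*, 0.79, and *UGCG*, 0.65) and 0 fell. With the control genes held equal their differences were larger (1.03 and 0.88), though neither passed there (adjusted p = 0.0522 and 0.0702). Neither passed with the methods' t-test (0.117 and 0.114), and without 1 array they were lost in 4 and 6 of 6 refits. Of 15 receptors and partners of S100 proteins and annexins, 1 rose and 1 fell (6.67% each, near the shares over all genes). *AHNAK2* rose (7.18 against 6.01, adjusted p = 0.00514) and the tetraspanin *CD9* fell (6.05 against 7.00, adjusted p = 0.0413). *CD9* did not pass with the control genes held equal (adjusted p = 0.105), with the methods' t-test (0.189) or in 5 of 6 refits without 1 array. The keratins had the lowest median difference of the 7 lists, at -0.58, against -0.04 for all genes. Of the 17 keratins, 15 were below 0, and 6 were under the array medians in both lines. *KRT10* went the other way without passing (4.79 against 3.81, 0.98, adjusted p = 0.101), and its arrays overlapped between the lines. With the control genes held equal all differences were higher, and so was the median of the keratins.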

How the data were processed

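The authors hybridized RNA of 3 UM-Cis and 3 UMSCC1 samples, and deposited log2 signals of 44629 probe sets. RMA stands in the submitters' processing notes and quantile normalization in the methods, while version and annotation were not given in the sources used here. Nothing says that the arrays came from separate cultures, so p-values measure the spread between these arrays, which may be technical. The number of arrays limits the precision.

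A platform annotation gave 1 symbol for 15835 probe sets and none for 28794. The brightest probe set stood for each of 14812 genes, with no filter on dim ones (none of the 68 genes has more than 1). The comparison of the lines used limma 3.58.1 (lmFit, eBayes; R 4.3.3), a step tested on simulated data. Alternatives were the methods' unpaired t-test, a trended and robust prior, array weights, the replicate block, quantile normalization again, an equal median of control genes, a dim filter at 4.78, the mean of probe sets or all of them, and leaving out each array. Figures were drawn with matplotlib 3.10.9.

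Deviations from the line means correlated by 0.505, 0.237 and 0.357 between same-labelled arrays (unnumbered, 1 and 2). On this basis alone the label was used as a pairing. Arrays 1 and 2 also correlated across labels (0.265 and 0.233).

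The members and lists were chosen with earlier results of these data known. Named genes were those past the threshold or 2-fold apart, the brightest 2 of each family, *CSTA*, *IVL*, *LORICRIN*, *FLG*, the partner pairs, and the 3 smallest p of each list (20 of the 68). Others were named after their values were seen, among them *S100A2*, *S100A6*, *S100A7*, *S100A7A*, *S100A1*, *S100A12*, *S100A13*, *S100A14*, *S100PBP*, *SPRR1B*, *LCE1F*, *LCE2D*, *ANXA3*, *ANXA4*, *ANXA7*, *ANXA11*, *JAG1*, *NOTCH2*, *KRT23*, *KRT10*, *SCEL*, *CST6*, *PKP1*, *EPCAM*, *SFN* and the copies of *ANXA2* and *ANXA8*.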

Additional observations from a re-analysis of the deposited data

How the results depend on the processing

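Of the 68 genes, limma called 0 higher and 4 lower. The number higher was 2 with a trended and robust prior, 2 with array weights, 2 with dim genes filtered (36 of the 68 tested), 1 when normalized again, 1 with the control genes held equal, 3 with the replicate block and 0 to 2 when 1 array was left out. Over all genes the numbers higher were 946, 1594, 949, 894, 787 and 1450 in that order, against 876 in the main fit. They were 433 to 848 when 1 array was left out. The number lower was 1 with the methods' t-test, 10 with array weights, 6 with the replicate block and 2 to 8 when 1 array was left out. Over all genes the numbers lower were 248, 1508 and 1244 in that order, against 681 in the main fit. They were 324 to 738 when 1 array was left out. Of the 68 genes, 8 were lower without the UM-Cis unnumbered array (738 over all genes) and 2 without UM-Cis array 1 (328 over all genes). The numbered arrays alone, an alternative chosen after seeing the data, gave 2 higher and 10 lower (1387 and 1301 over all genes). The mean of probe sets left 4 lower, and all probe sets 3 (*S100A9*, adjusted p = 0.0679). *CSTA* and *ANXA9* passed under every alternative except that *ANXA9* missed with the t-test.

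Signs of small differences changed. With the control genes held equal, *FLG* was at 0.031, *IVL* at 0.076, *LCE3A* at 0.018, *LCE3B* at 0.19, *LORICRIN* at 0.071, *ANXA3* at 0.17, *S100A12* at 0.19, *TGM5* at 0.22, *SFN* at 0.073, *PKP1* at 0.091, *ANXA2P1* at 0.13 and *SPRR2C* at 0.078. The numbered arrays alone gave -0.043 for *TGM4*, -0.17 for *TGM6*, 0.34 for *TGM5*, -0.034 for *ANXA2P3* and 0.30 for *SPRR2C*, and array weights gave -0.094 for *TGM6*, 0.18 for *TGM5*, -0.029 for *ANXA2P3* and 0.13 for *SPRR2C*. When 1 array was left out, *ANXA5* ran from -0.10 to 0.34, *LCE3B* from -0.13 to 0.0725, *TGM4* from -0.0074 to 0.23 *TGM6* from -0.13 to 0.17, *S100A12* from -0.12 to 0.032, *TGM5* from -0.34 to 0.24, *ANXA2P3* from -0.13 to 0.15 and *SPRR2C* from -0.39 to 0.11. The cause was not tested.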

Other observations

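The unnumbered arrays stood above the mean of the numbered arrays of their own line for 26 of the 68 genes in both lines. The share over all genes was not computed. The gap to the mean of the numbered arrays was 1.40 in UM-Cis and 0.60 in UMSCC1 for *SPRR2F*, and 0.73 and 0.59 for *ANXA5*. For *ANXA2* it was 0.65 and 0.38. The gap of *ANXA9* had opposite signs in the lines, at 1.13 in UM-Cis and -0.37 in UMSCC1. The transcribed pseudogene *SPRR2C*, left out of the 68 genes, measured 3.41 in UM-Cis and 3.57 in UMSCC1 (log2 difference -0.16, adjusted p = 0.781).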
